A study of Mus musculus with 10 samples.

Results

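The circadian clock genes described here were 10 rows of a table of 54146 mouse genes, chosen by name: the activators Arntl and Clock, the repressors Per1, Per2, Cry1 and Cry2, the nuclear receptors Nr1d1 and Nr1d2, and the output regulators Dbp and Tef. The circadian clock is a transcription loop in which Arntl (also called BMAL1) pairs with Clock and switches on genes with an E-box in their control regions, among them the Per and Cry genes, whose proteins then block the pair. Nr1d1 and Nr1d2 (REV-ERB alpha and beta) form another arm that represses Arntl, and Dbp and Tef carry the rhythm to genes with a D-box. In mouse neutrophils, Arntl has been linked to a daily cycle of ageing in blood that runs through Cxcl2 and Cxcr2 and ends with more Cxcr4 on the cell.

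RNA was measured in CD11b+ Ly-6G+ cells sorted from peripheral blood of mice of the BALB/c nu/nu strain, which lack a thymus and so most T cells, 14 days after an injection into the kidney. The injection held vehicle (sham), the human clear cell renal carcinoma cells OSPa, or 1 of the lines OS5K #1, OS5K #2 and OS5K #3, all OS-RC-2 cells or derivatives of them, with 2 libraries in each of the 5 groups. The mice were otherwise untreated. The age and sex of the mice, the hour of blood collection, the lighting and whether a library came from 1 mouse or several are not stated in the labels, so differences in clock phase between groups and effects of the tumours cannot be told apart, and p-values measure the spread between these libraries. Values are RPKM, reads divided by gene length and by library size, and the libraries held from 13765576 to 15514537 reads. The summed level of 9 neutrophil marker genes was 63844 to 84676 RPKM. That of 9 erythroid markers was 20826 to 121701 RPKM, lowest in both OSPa libraries and highest in replicate 1 of OS5K #1. In bulk libraries, fewer cells of a type and less RNA per cell cannot be told apart.

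Only 1 of the 10 clock genes, Cry1, was abundant, and Nr1d1 was close to the limit of detection. Nr1d2, Dbp, Arntl and Tef had reads in all 10 libraries but rested on few of them. Cry1 averaged 17.0 ± 1.68 RPKM (SD, n = 10 libraries), higher than 92.2% of the genes with any reads. Per2 followed at 2.30 ± 0.571 RPKM and Per1 at 0.928 ± 0.332 RPKM. Cry1 exceeded Per2 by 7.39-fold on average and in all 10 libraries, and Per2 exceeded Per1 in all 10. The other 7 genes had means under 1 RPKM: Cry2 at 0.612 ± 0.149, Clock at 0.433 ± 0.105, Nr1d2 at 0.242 ± 0.200, Dbp at 0.206 ± 0.113, Arntl at 0.203 ± 0.0812, Tef at 0.138 ± 0.0789 and Nr1d1 at 0.0235 ± 0.0272 RPKM (SD, n = 10 for each). The order of Nr1d2, Dbp and Arntl was not resolved: Nr1d2 was above Dbp in 4 of 10 libraries and Dbp above Arntl in 6.

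**Figure D1:**
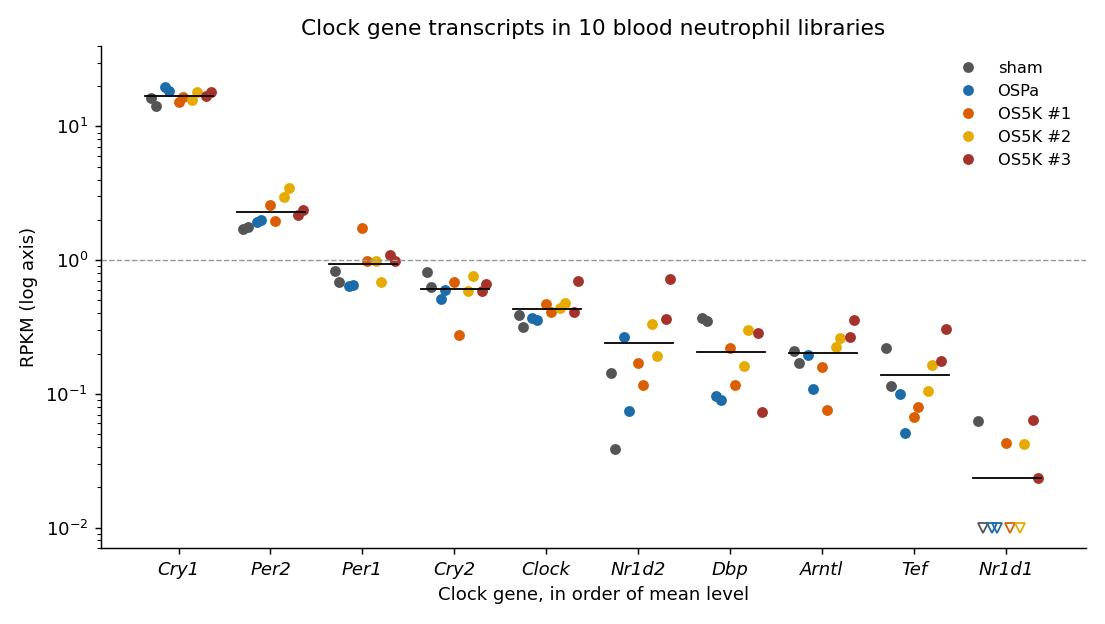
RPKM of each clock gene (log axis) in the 10 libraries, coloured by group, with the mean over libraries as a black bar, the level of 1 RPKM as a dashed line and open triangles for libraries at 0. Cry1 lies between 14.2 and 19.8 RPKM in every library, while 5 of 10 libraries hold no read of Nr1d1.

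Reads behind each level set its precision. Over all libraries Cry1 rested on 8341 reads, Per2 on 1986, Clock on 874, Per1 on 772 and Cry2 on 573. The remaining genes had 190 (Nr1d2), 160 (Tef), 110 (Arntl), 92 (Dbp) and 11 reads (Nr1d1). Counting error alone would give Cry1 a coefficient of variation of 3.46% between libraries, and 9.90% was seen. For Nr1d2, 82.7% was seen against 22.9% from counting, the widest relative spread among genes with reads in every library. For Arntl the spread of 40.1% was close to the 30.2% that counting gives, and for Nr1d1 115.8% was close to 95.3%.

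Promoters are shown for the genes at the ends of this range, Cry1 as the highest and Nr1d1 as the lowest, and for Per1, whose relative spread between libraries of 35.8% was the widest of the 3 genes with a mean near or above 1 RPKM. Each is the 250 bases before a RefSeq start site on GRCm38.p6, 5′ to 3′ on the gene's strand, in lower case. Capitals mark the E-box CACGTG and AGGTCA or its reverse complement TGACCT, the core of the element that the ROR and REV-ERB receptors bind.
Cry1 (chr10:85185055-85185304, minus strand): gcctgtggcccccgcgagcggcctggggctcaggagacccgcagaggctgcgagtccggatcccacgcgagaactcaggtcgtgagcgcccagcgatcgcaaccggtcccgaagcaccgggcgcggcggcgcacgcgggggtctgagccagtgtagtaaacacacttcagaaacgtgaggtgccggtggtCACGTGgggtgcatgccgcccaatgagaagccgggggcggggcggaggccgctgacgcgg
Per1 (chr11:69098699-69098948, plus strand): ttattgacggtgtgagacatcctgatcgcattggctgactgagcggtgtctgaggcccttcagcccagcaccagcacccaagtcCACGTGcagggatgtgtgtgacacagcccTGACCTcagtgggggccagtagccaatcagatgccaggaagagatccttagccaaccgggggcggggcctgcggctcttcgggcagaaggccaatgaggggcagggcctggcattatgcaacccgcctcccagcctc
Nr1d1 (chr11:98775378-98775627, minus strand): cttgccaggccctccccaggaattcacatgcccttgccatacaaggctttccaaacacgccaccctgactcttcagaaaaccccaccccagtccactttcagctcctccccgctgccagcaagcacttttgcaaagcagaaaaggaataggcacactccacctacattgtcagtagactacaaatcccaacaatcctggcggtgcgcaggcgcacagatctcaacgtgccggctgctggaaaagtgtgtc
The Cry1 window held an E-box whose first base lay at -60 from the start site. The printed Per1 window held an E-box at -166 and a receptor core at -137, and the Nr1d1 window held neither. Per1 has another RefSeq start site, and the 250 bases before it (chr11:69099902-69100151) also held neither. On both strands of 300-base windows (250 before and 50 after a start), the E-box was present in 7.15% of 32817 windows of all genes and the receptor core in 16.3%. Of the 14 windows of the 9 clock genes with an entry, 4 held the E-box and 4 the receptor core. The E-box windows belonged to 3 genes (Cry1, Per1 and Tef) and the receptor core windows to 4 (Clock, Arntl, Per1 and Nr1d2). The D-box letters TTATGTAA and TTACGTAA and the CRE TGACGTCA were in none of the 14 windows. A match of letters describes the window and is not a binding site.

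Only Cry1, Per1 and Per2 reached 1 RPKM in at least 2 libraries, the minimum for the main test, and none of the 3 differed between groups at an adjusted p under 0.05. The test was limma on log2(RPKM + 1) over 8039 genes with Benjamini-Hochberg adjustment. Across all 5 groups it called 1 gene (0.0124%). Comparing the 3 OS5K groups, averaged, with OSPa, it called 28 genes (0.348%). It called 0 genes (0%) for OSPa against sham, for the 4 tumour groups against sham and among the 3 OS5K lines, where 480, 720 and 535 genes had an unadjusted p under 0.05. To reach the lower genes, limma-voom was also run on the reads recovered from the RPKM values, over 13069 genes with at least 20 reads in all, a test added after seeing the data. It covered 9 of the 10 clock genes, all but Nr1d1, and called none of the 9 in any comparison. Over all genes that fit called 28 genes among the 5 groups (0.214%), 23 for OS5K against OSPa (0.176%) and 0 in the other 3 comparisons (0%), in which 751, 1063 and 848 genes had an unadjusted p under 0.05. Comparisons against OSPa or against sham share those libraries and are not independent.

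Both activators were low. Clock (chr5:76209868-76304792, minus strand of mm10) stood at 0.390 and 0.315 RPKM in sham and at 0.371 and 0.360 RPKM in OSPa. It stood at 0.467 and 0.411 RPKM in OS5K #1, at 0.438 and 0.474 RPKM in OS5K #2 and at 0.408 and 0.699 RPKM in OS5K #3. All 6 OS5K libraries were above both OSPa and both sham libraries, by a margin small beside the gap within the OS5K #3 pair. By limma-voom the log2 difference between OS5K and OSPa was 0.37 (SE 0.25, adjusted p = 0.819). Arntl, its partner (chr7:113207465-113314126, plus strand), stood at 0.210 and 0.170 RPKM in sham, 0.195 and 0.109 RPKM in OSPa, and 0.160 and 0.0755 RPKM in OS5K #1. It stood at 0.225 and 0.262 RPKM in OS5K #2 and at 0.268 and 0.355 RPKM in OS5K #3. For Arntl both OS5K #3 libraries were above all others, the OS5K #2 pair came next, and both OS5K #1 libraries were below both sham libraries. These values rest on 4 to 18 reads a library, and by limma-voom the F test among the OS5K lines gave an adjusted p of 0.768.

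Per2, a repressor that the Arntl and Clock pair switches on, came closest to a difference between groups. Its RPKM (chr1:91415982-91459324, minus strand) was 1.72 and 1.76 in sham, 1.94 and 1.99 in OSPa and 2.59 and 1.96 in OS5K #1. In OS5K #2 it was 2.97 and 3.49 and in OS5K #3 it was 2.17 and 2.36. All 8 libraries from tumour-bearing mice were above both sham libraries, and the OS5K #2 pair was above every other library. The mean was 3.23 ± 0.366 RPKM in OS5K #2 and 1.74 ± 0.0320 RPKM in sham (SD, n = 2 each). On the log2(RPKM + 1) scale, which understates changes of genes this low, the 4 tumour groups exceeded sham by 0.31 (SE 0.11, limma adjusted p = 0.454). The OS5K mean exceeded OSPa by 0.26 (SE 0.11, limma adjusted p = 0.620), with 1 OS5K library below the higher OSPa library. The limma F tests gave an adjusted p of 0.414 among the 5 groups and of 0.734 among the 3 OS5K lines. The 6 platelet markers were all above sham in the average of the 4 tumour groups, with a median log2 difference of 1.10 and 0 passing the test. They summed to 198.5 to 609.8 RPKM in sham, 374.3 to 646.3 RPKM in OSPa and 551.7 to 998.4 RPKM in OS5K #1. The sums were 644.8 to 1450.2 RPKM in OS5K #2 and 625.4 to 1414.3 RPKM in OS5K #3. Within OS5K #2 the sum was 1450.2 RPKM in replicate 1 and 644.8 RPKM in replicate 2, where Per2 was higher. The part of platelet RNA in the Per2 values was not tested.

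Per1, which hormones and other stimuli also induce directly, was highest in OS5K #1. Its RPKM (chr11:69095217-69109960, plus strand) was 0.825 and 0.682 in sham, 0.638 and 0.652 in OSPa and 1.74 and 0.988 in OS5K #1. In OS5K #2 it was 0.981 and 0.687 and in OS5K #3 it was 1.10 and 0.980. All 6 OS5K libraries were above both OSPa libraries, and OS5K #2 overlapped sham. Per1 reached 1 RPKM in 2 libraries, both of OS5K, so it met the minimum for the main test through the groups in which it was high. The log2(RPKM + 1) difference between OS5K and OSPa was 0.32 (SE 0.15, limma adjusted p = 0.662). Leaving out 1 library at a time, this difference ran from 0.25 without replicate 1 of OS5K #1 to 0.40 without replicate 2 of that group. By limma-voom the log2 difference was 0.68 (SE 0.29, adjusted p = 0.567).

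Hemoglobin reads and Per1 were lowest in the same group and highest in the same library. The 4 adult hemoglobin genes held 1.59% and 2.19% of reads in the OSPa libraries, where Per1 was lowest, and 9.52% in replicate 1 of OS5K #1, where Per1 was highest. In the other libraries they held 3.46% to 5.16%. Of 9 erythroid markers, all 9 were higher in OS5K than in OSPa and 4 passed the test, with a median log2 difference of 1.52 against 0.02 over all genes. Their part in the Per1 values was not tested. With RPKM recomputed on the reads outside hemoglobin, the Per1 difference between OS5K and OSPa was 0.35 (SE 0.16, limma adjusted p = 0.583). That step scales every gene of a library by the same factor, so it cannot show which cells the Per1 reads came from. It raises RPKM more in the OS5K libraries, where hemoglobin took a larger share than in OSPa. The genes whose log2 level was most like Per1 over the 10 libraries, among 3885 candidates of at least 5 RPKM, were Ncoa4 (Pearson r = 0.93), Bnip3l (0.91) and Ghitm (0.91). All 3 were highest in the same OS5K #1 library, at 78.1 RPKM for Ncoa4, 159.4 for Bnip3l and 63.6 for Ghitm. They were picked for likeness to Per1 in these same libraries, so the high r and shared highest library follow largely from that choice.

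**Figure D2:**
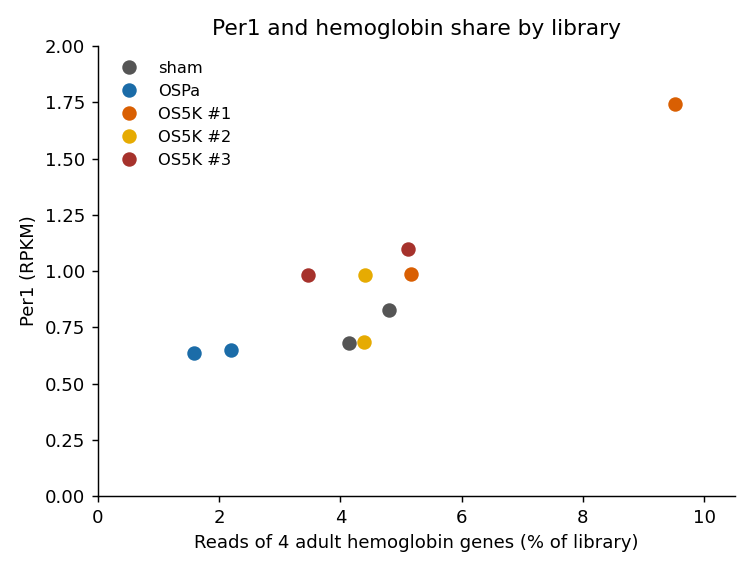
Per1 (RPKM) against the share of reads from 4 adult hemoglobin genes (% of the library) in the 10 libraries, coloured by group. The OSPa libraries sit lowest on both axes, at 1.59% and 2.19%, and replicate 1 of OS5K #1 highest on both, at 9.52% and 1.74 RPKM.

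The cryptochromes bind the Arntl and Clock pair together with the Per proteins, and the 2 genes of the family were far apart in level. Cry1 RPKM (chr10:85131700-85185064, minus strand) was 16.4 and 14.2 in sham, 19.8 and 18.6 in OSPa and 15.2 and 16.7 in OS5K #1. In OS5K #2 it was 15.9 and 18.0 and in OS5K #3 it was 16.8 and 18.1. Both OSPa libraries were above all 8 others. OSPa exceeded sham by 0.31 on the log2 scale (SE 0.13, limma adjusted p = 0.800), and OS5K differed from OSPa by -0.18 (SE 0.10, limma adjusted p = 0.794). Cry2 (chr2:92403646-92434043, minus strand) ranged from 0.275 RPKM in replicate 2 of OS5K #1 to 0.817 RPKM in replicate 1 of sham, with a median of 0.616 RPKM. Its OSPa libraries, at 0.511 and 0.602 RPKM, were below both sham libraries, and by limma-voom the log2 difference was -0.37 (SE 0.36, adjusted p = 0.877).

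The genes most like Per2 by the same measure were Tpm4 (r = 0.84), Jaml (0.82) and Sh3bp5 (0.81). Those most like Cry1 were Tpm3-rs7 (0.90), Agfg1 (0.89) and Ctnnbip1 (0.86). The points of these correlations are the 10 libraries, which share one table and its scaling.

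**Figure D3:**
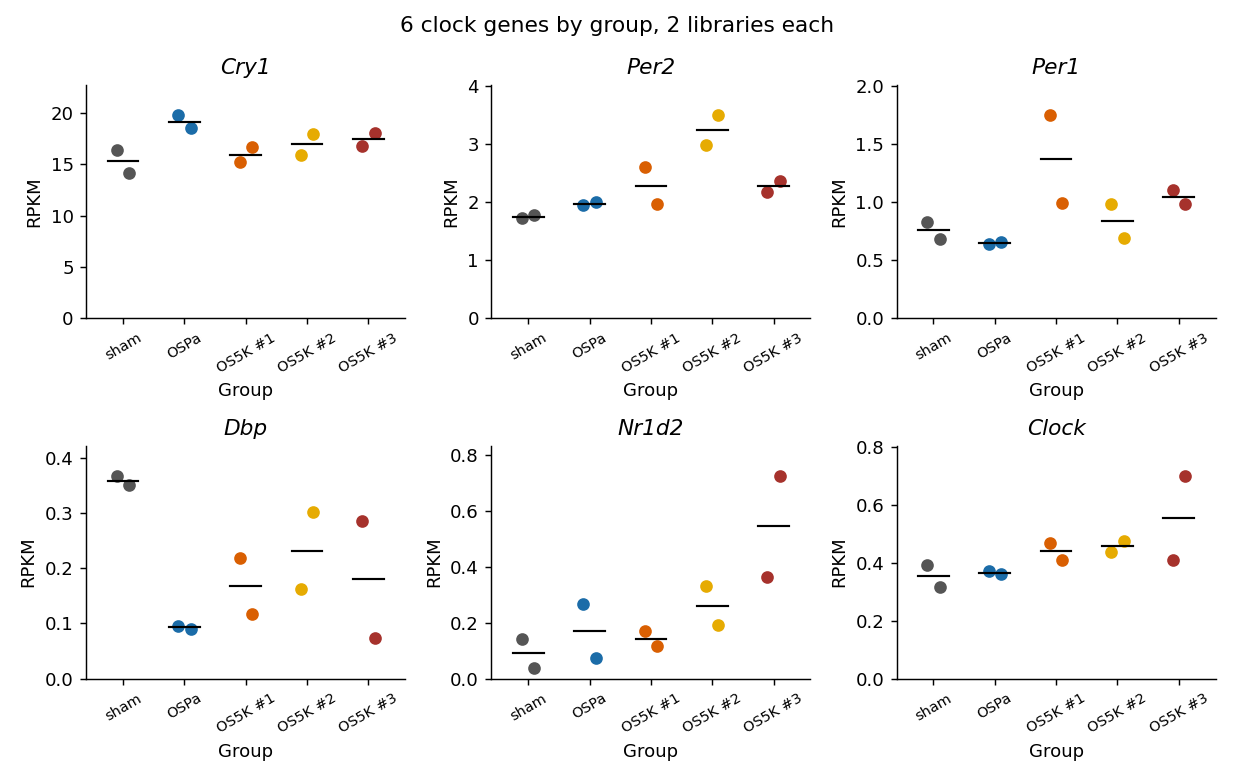
RPKM of 6 clock genes in each group, with a point for each library and a bar for the group mean (n = 2). Per2 is highest in OS5K #2, Cry1 in OSPa and Dbp in sham, and for Nr1d2 the OS5K #3 pair lies above the other 8 libraries.

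Of the REV-ERB receptors, Nr1d2 was the more abundant. It (chr14:18204054-18239127, minus strand) stood at 0.143 and 0.0387 RPKM in sham, 0.266 and 0.0740 RPKM in OSPa and 0.169 and 0.116 RPKM in OS5K #1. It stood at 0.332 and 0.191 RPKM in OS5K #2 and at 0.365 and 0.725 RPKM in OS5K #3. Both OS5K #3 libraries were above all others, with a group mean of 0.545 ± 0.254 RPKM against 0.0910 ± 0.0739 RPKM in sham (SD, n = 2 each). By limma-voom the 4 tumour groups exceeded sham by 1.46 (log2, SE 0.70, adjusted p = 0.615), and the F test among the OS5K lines gave an adjusted p of 0.766. The 9 monocyte markers, 2 of which were called higher in OS5K than in OSPa, summed to at least 246.6 RPKM in both OS5K #3 libraries. They summed to 175.7 to 256.5 RPKM in the other groups. The largest parts, Csf1r, Cd68 and Ly6c2, averaged 102.6, 63.5 and 30.5 RPKM in OS5K #3 and 100.8, 66.7 and 35.8 RPKM in sham. The called markers, Ccr2 and Ms4a6c, averaged 9.77 and 9.11 RPKM in OS5K #3 and 1.06 and 1.66 RPKM in sham. The part of monocyte RNA in the Nr1d2 values was not tested. Nr1d1 (chr11:98767932-98775333, minus strand) had 3 reads or fewer in every library and 0 in both OSPa libraries, which allows up to 0.0337 RPKM there. It had too few reads for either test above, and without a filter on low values limma called it in none of the 5 comparisons. On the opposite strand Nr1d1 shares 263 exonic bases with Thra, which averaged 1.18 RPKM, and whether counting used strand is not given, so reads of the 2 genes cannot be told apart there.

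The output Dbp is often among the genes of largest daily swing in mouse tissues, and here Dbp and Tef were both low. Dbp (chr7:45705088-45710203, plus strand) stood at 0.367 and 0.350 RPKM in sham, 0.0960 and 0.0891 RPKM in OSPa and 0.219 and 0.116 RPKM in OS5K #1. It stood at 0.161 and 0.301 RPKM in OS5K #2 and at 0.286 and 0.0728 RPKM in OS5K #3. Both sham libraries were above all 8 others. The values rest on 32 reads in sham, 8 in OSPa and 52 over the 6 OS5K libraries. By limma-voom OSPa differed from sham by -1.83 (log2, SE 0.74, adjusted p = 0.856) and the 4 tumour groups from sham by -1.19 (SE 0.46, adjusted p = 0.502). Dbp shares 539 exonic bases with Sphk2 on the opposite strand, which was at 7.54 RPKM on average. Sphk2 was highest in replicate 1 of sham, at 10.7 RPKM, and lowest in replicate 2 of OS5K #3, at 5.45 RPKM. Dbp was highest and lowest in the same libraries. In replicate 2 of OSPa, by contrast, Sphk2 was at 8.28 RPKM and Dbp at 0.0891 RPKM. How many Dbp reads lie in the shared bases is not known, so any of these few reads could belong to either gene. Markers of lymphocytes had higher sums in replicate 1 of sham than in any other library: the 6 B cell markers summed to 84.5 and 144.7 RPKM there and to 44.6 to 117.7 RPKM in the tumour groups, and the 7 T and NK cell markers to 8.73 and 14.3 RPKM against 3.62 to 10.6 RPKM. All 6 B cell markers and all 4 tested T and NK cell markers were below sham in the average of the 4 tumour groups, 0 of them passed the test, and their part in the Dbp values was not tested. Tef (chr15:81802421-81826863, plus strand) stood at 0.222 and 0.115 RPKM in sham, 0.1004 and 0.0509 RPKM in OSPa and 0.0666 and 0.0796 RPKM in OS5K #1. It stood at 0.105 and 0.164 RPKM in OS5K #2 and at 0.176 and 0.305 RPKM in OS5K #3. Tef was lower in both OSPa libraries than in sham, with a log2 difference of -1.14 (SE 0.62, limma-voom adjusted p = 0.856).

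**Figure D4:**
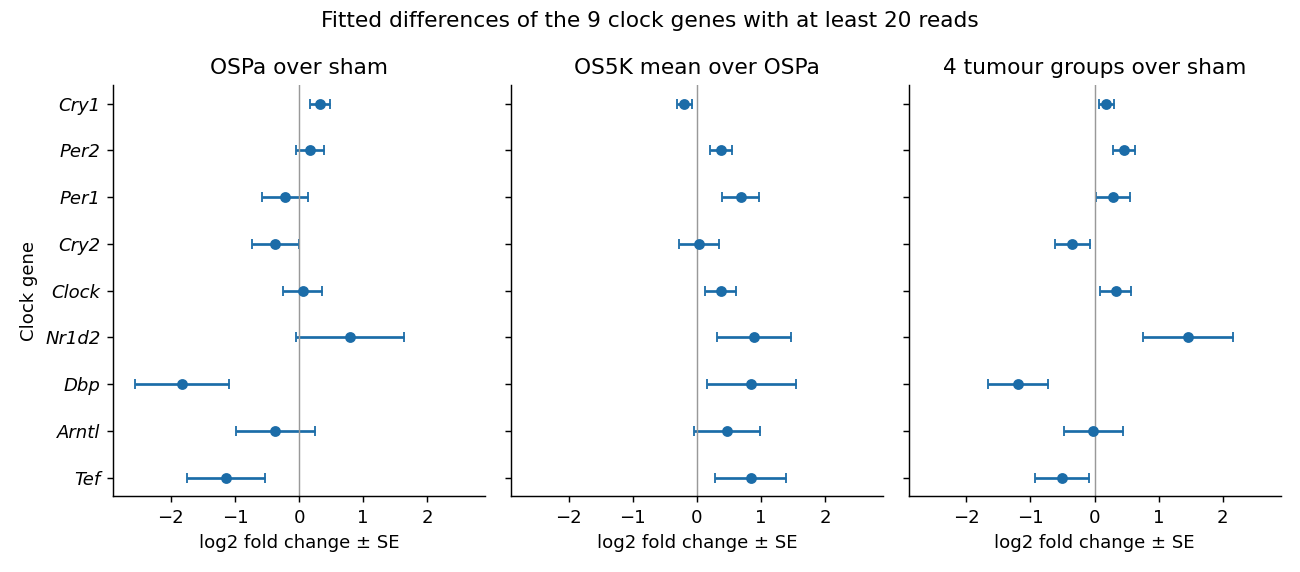
Log2 fold change with its SE, from limma-voom on recovered reads, of the 9 clock genes with at least 20 reads, for OSPa over sham, the OS5K mean over OSPa and the 4 tumour groups over sham. The widest intervals belong to Dbp, Nr1d2, Tef and Arntl, and none of the values has an adjusted p under 0.05.

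Groups whose libraries did not overlap were counted as a description. Between OS5K and OSPa, 3 of 9 clock genes did not overlap (Clock and Per1 higher, Cry1 lower), where 9.2% of 13069 genes did not. Between OSPa and sham, 6 of 9 did not overlap (Per2 and Cry1 higher; Per1, Cry2, Dbp and Tef lower), where 34.3% of genes did not. Between the 4 tumour groups and sham, 2 of 9 did not (Per2 higher, Dbp lower), where 5.92% of genes did not. Single libraries also stood out: replicate 2 of OS5K #3 was the highest of the 10 for Arntl, Clock, Nr1d2 and Tef and the lowest for Dbp.

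In the textbook clock Arntl runs opposite to Nr1d1, Dbp and Per2, while Nr1d1, Nr1d2, Dbp, Tef, Per1 and Per2 peak within some hours of each other. Of 7 such pairs, 0 were correlated over the 10 libraries after Benjamini-Hochberg adjustment (two-sided permutation tests, 100000 resamples). The highest was Nr1d1 with Dbp (Pearson r = 0.60, permutation p = 0.0711, adjusted p = 0.497; Spearman rho = 0.47, permutation p = 0.171, adjusted p = 0.411), which was 0.33 without the 2 libraries farthest from the median of Nr1d1. On deviations from the group means it was 0.75, which with 2 libraries in a group rests on 5 independent values (exact permutation within groups, two-sided p = 0.125; the smallest p possible is 0.0625). Nr1d1 had 0 to 3 reads a library and Dbp 3 to 17, so correlations of either gene rest on few reads. Both genes share exonic bases with a gene on the opposite strand, as given above. For Arntl, r was 0.46 with Nr1d1 (permutation p = 0.185, adjusted p = 0.597), 0.13 with Dbp (p = 0.722, adjusted p = 0.722) and 0.40 with Per2 (p = 0.256, adjusted p = 0.597). The signs depended on the scaling: after median centring r was -0.226 with Nr1d1 and -0.474 with Dbp. Median centring shifts every gene of a library by the same log2 amount, also genes with few or no reads. The part of that shift in these values was not tested. As reported, the Spearman rho of Arntl with Nr1d1, Dbp and Per2 was 0.50 (permutation p = 0.149), 0.08 (p = 0.837) and 0.38 (p = 0.279). Without the 2 farthest libraries r was 0.53, 0.47 and 0.44.

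Other clock genes were described from a list of 26 names, of which 24 were in the table and 11 were tested, and 0 of the 11 passed the test in any of the 5 comparisons. Against OSPa, 5 were higher and 6 lower in OS5K, with a median log2 difference of -0.04 against 0.02 over all genes. Among those of highest level were Nfil3, a repressor at the D-box (45.1 ± 6.80 RPKM, SD, n = 10), Nampt, an enzyme of NAD synthesis (24.0 ± 4.54), the Per kinases Csnk1d (18.3 ± 2.08) and Csnk1e (12.6 ± 0.752), and the Per-binding protein Nono (15.4 ± 1.24). Chosen after their values were seen, Npas2, an alternative to Clock, had 4 reads in all, Per3 had 20 and Rora 13.

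Of the 7 neutrophil ageing genes, none passed the test in any comparison. Cxcr2 averaged 780.0 ± 48.3 RPKM and Cxcr4 30.5 ± 4.13 RPKM (SD, n = 10). Cxcl2, which Arntl drives in mouse neutrophils, ranged from 0.587 to 4.44 RPKM. Of 8 glucocorticoid response genes, which respond to the hormone that also induces Per1, 7 were tested and 0 passed; all 7 were above sham in the average of the 4 tumour groups, though 2 were below it in OSPa, with a median log2 difference of 0.15 against -0.03 over all genes. Of 9 CREB or serum response genes 8 were tested and 0 passed. All 8 were below sham in that average, though Crem (-0.004) and Dusp1 (-0.02) only barely, and 1 was above it in OSPa. The median log2 difference was -0.46 against -0.03 over all genes. Sums of the 9 genes overlapped, at 1622.9 to 2024.0 RPKM in sham and 1145.8 to 1781.6 RPKM in the tumour groups.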

How the data were processed

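The data are 10 neutrophil RNA libraries, whose 5 groups of 2 were taken from the labels. Per the labels' protocols, libraries were made with SMART-Seq v4 and Ion Xpress Plus kits. The authors deposited RPKM values, made on mm10 per the submitters' processing notes. Strand use, aligner and counter were not given in the sources used here. With GENCODE M21 lengths, RPKM steps gave whole reads for 84.7% of values above 0 (tolerance 0.02 reads), including 9 of the 10 clock genes. Arntl was whole at 3688 bases, not its annotated 7523, and a multiple of that length would raise its reads.

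The test had been planned for counts or RPKM. limma (version 3.58.1, R 4.3.3, trend and robust) was fitted to log2(RPKM + 1) with 5 group means and 5 residual degrees of freedom, for genes with at least 1 RPKM in 2 libraries, and tested on simulated data. The clock genes and lists were chosen with earlier results of these data known. All 10 clock genes are named, with up to 6 other clock genes of highest mean and the 3 genes most like each tested one. Some listed genes count towards the totals but are not reported here. Limits for 0 reads take 3 reads and cover counting error only. Alternatives were other scalings, pseudocounts, filters, limma-voom, a replicate block, only the groups compared and leaving out each library.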

Additional observations from a re-analysis of the deposited data

Results flagged for a closer look

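Among the 6 OS5K libraries, replicate 2 of OS5K #3 stood above the others for Clock, at 0.699 RPKM, and replicate 2 of OS5K #1 stood below the others for Cry2, at 0.275 RPKM. Both were found by the gap to the nearest library relative to the range (Dixon's test at the 95% level), which chance alone passes in about 1 of 20 groups. In all 20 such tests were run, on the highest and the lowest library for each of 10 genes, and 2 passed, with a gap of 0.772 of the range for Clock and of 0.630 for Cry2, the latter just past the threshold. The former library was also the highest of the 10 for Arntl, Nr1d2 and Tef.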

How the results depend on the processing

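No clock gene passed an adjusted p of 0.05 in any of 109 alternative fits, 103 planned and 6 chosen after seeing the data, and the smallest adjusted p was 0.322, for Per2 among the 5 groups by limma-voom. A filter at 5 RPKM left only Cry1 of the clock genes to test, and without a filter all 10 were tested. Fits to only the groups compared are the same as the reported ones for the 5 groups and for tumour against sham. The log2 fold change of Per1 in OSPa against sham, -0.09 as reported, was 0.025 after quantile normalization; the cause was not tested. Correlations of low genes changed sign, and median centring shifts genes near 0 by the same amount as all others in a library. Arntl with Dbp was -0.0770 after quantile normalization, -0.474 after median centring and -0.0337 on deviations from group means. Dbp with Tef was -0.00279, -0.258 and -0.352 in the same order. Nr1d1 with Nr1d2 was -0.205 after median centring and -0.195 on deviations, and Arntl with Nr1d1 was -0.226 after median centring. Values on deviations rest on 5 independent values, too few for a test to pass. Leaving out 1 library at a time, r ran from -0.0365 to 0.563 for Arntl with Dbp and from -0.00516 to 0.772 for Dbp with Tef. With the replicate numbers as a replicate block, 0 clock genes were called in each comparison, and 21 genes in all for OS5K against OSPa in place of 28. Deviations of libraries with the same number correlated from -0.38 to 0.45 between groups. These values do not settle whether the numbers pair the libraries, and the labels name no pairing. Crossing the numbers of OSPa called 0 genes for OSPa against sham. Over all genes, the count for OS5K against OSPa ran from 15 to 37 across the other settings and from 1 to 60 when 1 library was left out, lowest without OSPa replicate 1. For tumour against sham it was 24 without sham replicate 1, and among the 5 groups up to 28. With 2 libraries in a group and from 11 to 190 reads in all for 5 of the clock genes, small differences were not detectable at this depth.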
